A study of Mus musculus with 9 samples.

Results

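The collagen chains of rat liver were followed through carbon tetrachloride (CCl4) injury and schisandrin B treatment. The chains were taken by name alone: every entry of the count table whose symbol is Col, a number, the letter a and a number is a member. This gave 44 chains among 37203 gene entries. They comprise 11 fibrillar chains, 6 type IV chains of basement membranes, 6 type VI chains, 9 fibril-associated chains, 4 transmembrane chains, 3 short-chain network chains, 2 multiplexins, the anchoring fibril chain Col7a1, and Col26a1 and Col28a1. Of the 44, 26 held enough counts to be tested, 13 had some counts but too few, and 5 had none.

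Liver RNA came from Wistar rats, labelled male, in 3 groups with 3 libraries each. The normal group received olive oil only. The fibrosis group received CCl4, a solvent that hepatocytes convert to a toxic radical, over 8 weeks: each dose was 2 mL/kg, diluted to 50% with the oil, with 3 doses weekly. Rats treated with schisandrin B, a lignan of Schisandra fruit, had the same CCl4 course and took the lignan daily in its last 4 weeks. The study had 25 and 50 mg/kg arms of schisandrin B, and the labels leave unnamed which arm the 3 libraries represent. They also do not state that libraries of a group are separate animals. The p-values therefore measure the spread between these libraries, which may be technical. No genotype or transgene is involved. The tissue is whole liver, so a lower level can mean fewer cells of a type or less RNA per cell, and these cannot be told apart.

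Collagens are proteins whose chains wind around one another into a rod-like helix. Fibrillar collagens, above all types I and III, form the banded fibres of scar tissue. Type IV collagens form the sheet under epithelial and endothelial cells, type VI forms beaded filaments, and fibril-associated collagens sit on the surface of fibres. In the liver, stellate cells in the space between hepatocytes and sinusoids take on a contractile, matrix-making state after injury and are regarded as the main source of scar collagen. Hepatocytes themselves are a known source of type XVIII collagen, from which the fragment endostatin is cut.

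Libraries held 10320299 to 16255167 counts. Levels below are TMM-scaled CPM, which are counts relative to library size, and a log2 change of 1 is a doubling. A chain is said to have risen or fallen where edgeR's quasi-likelihood test over all 14581 tested genes gave a Benjamini-Hochberg adjusted p under 0.05. The normal libraries had 0 counts for the Y-linked genes Kdm5d and Eif2s3y, which had 73 to 193 counts in every CCl4-treated library, although the labels call every rat male. In comparisons against the normal libraries, treatment and this difference cannot be told apart. Schisandrin B against fibrosis is the comparison in which both groups carried Y-linked transcripts.

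The collagen message of these livers was dominated by a few chains. Col18a1, the type XVIII chain, supplied 63.2% ± 4.49 of collagen counts in normal, 42.3% ± 9.22 in fibrosis and 53.6% ± 4.81 in schisandrin B libraries (SD, n = 3). Col3a1, the type III chain of thin reticular fibres, supplied 15.1% ± 2.52, 20.5% ± 5.49 and 20.9% ± 1.20 (SD, n = 3). Col1a1, the principal chain of scar fibres, stayed a small part of the total, at 0.76% ± 0.05 in normal, 1.22% ± 0.58 in fibrosis and 2.19% ± 1.02 in schisandrin B libraries (SD, n = 3). Summed over all 44 chains, collagen levels were 1332 ± 223 CPM in normal, 1065 ± 112 in fibrosis and 1736 ± 155 in schisandrin B libraries (SD, n = 3). The schisandrin B libraries, from 1623 to 1913 CPM, lay above the fibrosis libraries, from 936 to 1133 CPM, and above the normal libraries, from 1080 to 1501 CPM. The order of fibrosis and normal depended on the scaling, since as a share of all counts collagen took 0.0942%, 0.129% and 0.126% in normal, 0.120%, 0.107% and 0.151% in fibrosis, and 0.194%, 0.160% and 0.155% in schisandrin B libraries.

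**Figure D1:**
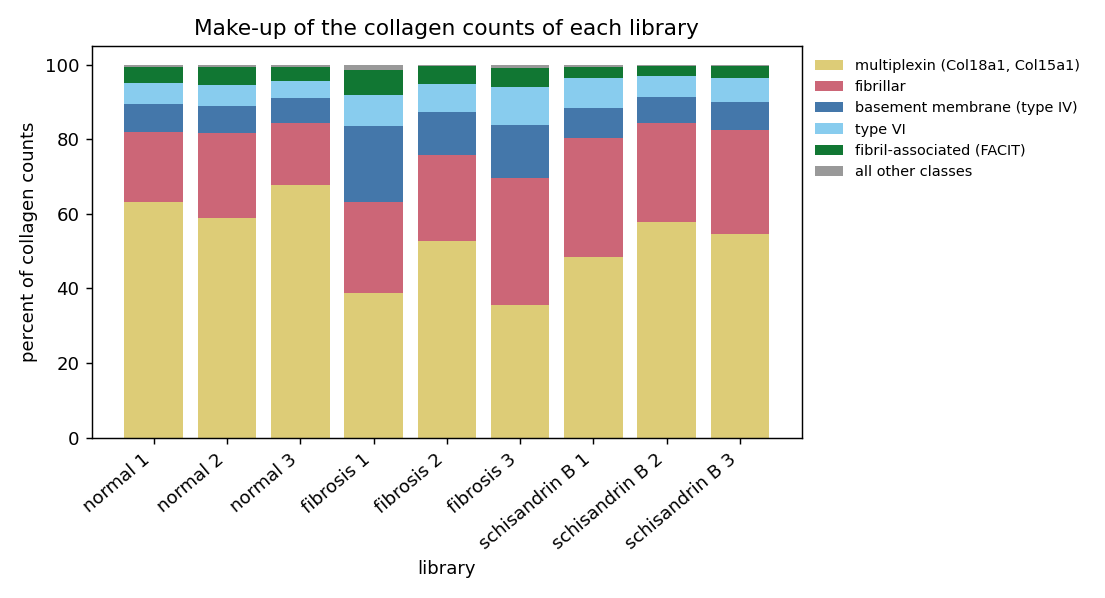
Share of each collagen class (percent of collagen counts, stacked to 100) in each of the 9 libraries. The multiplexin share, nearly all Col18a1, is 58.8% to 67.7% in normal and 35.4% to 52.8% in fibrosis libraries, while the type IV share is 6.57% to 7.51% in normal and 11.7% to 20.2% in fibrosis libraries.

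To compare levels between chains, CPM were divided by the coding length of the mouse orthologue, since rat gene models were not used here. On this scale Col18a1 led in each group, with 158.5 ± 31.4 CPM per kb in normal, 83.3 ± 8.77 in fibrosis and 174 ± 7.82 in schisandrin B libraries (SD, n = 3). Col3a1 was the next in each group, with 45.9 ± 11.7, 50.2 ± 17.2 and 82.8 ± 11.7 CPM per kb (SD, n = 3), and its libraries did not overlap those of Col18a1. Col6a1 and Col4a1 followed in normal libraries at 11.03 ± 1.85 and 10.7 ± 1.25 CPM per kb (SD, n = 3) and did not differ beyond their spread. In fibrosis libraries Col4a1 came next after Col3a1, at 19.9 ± 8.21 CPM per kb, and its range again overlapped that of Col6a1 at 15.1 ± 3.22 (SD, n = 3).

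In fibrosis against normal, 6 chains rose and 3 fell of the 26 tested, where 25.4% of all tested genes were called higher, 22.9% lower and 48.3% in either direction. The 26 chains had a median log2 change of 0.41, beside 0.03 for all tested genes, and in 8 of them the groups did not overlap, against 55.8% of all genes. The fibrillar Col5a2 and Col27a1, the basement membrane chains Col4a1 and Col4a2, and the fibril-associated Col12a1 and Col20a1 rose. Col18a1, Col4a4 and Col22a1 fell. The main scar chains Col1a1, Col1a2 and Col3a1 were not called. With scaling by library totals, which shifted the median of all genes by 0.43, 13 chains were called higher and Col18a1 was the 1 chain called lower. Leaving out 1 library gave 3 to 7 rises and 1 to 3 falls, with 3 rises without normal replicate 1, 4 without fibrosis replicate 1, and 1 fall without normal replicate 2 or fibrosis replicate 2 or 3.

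Between schisandrin B and fibrosis, 5 chains rose and 1 fell, where 22.5% of all tested genes were called higher, 24.8% lower and 47.3% in either direction. Col1a1, Col1a2, Col3a1, Col5a1 and Col18a1 rose and Col12a1 fell. The median over the 26 chains was 0.30, beside -0.03 for all genes, and 7 chains did not overlap between the groups, against 56.8% of all genes. With library totals, which moved the median of all genes by -0.27, 2 chains were called higher (Col5a1 and Col18a1) and 2 lower (Col12a1 and Col4a1). Without fibrosis replicate 2 the balance turned, with 2 higher (Col5a1 and Col18a1) and 3 lower, Col12a1 and Col4a1 among them. Without fibrosis replicate 1, or without any 1 schisandrin B library, 3 were higher and 1 lower.

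In schisandrin B against normal, Col1a1, Col5a2, Col27a1 and Col6a2 rose and 0 chains fell, where 5.25% of all tested genes were called in each direction and 10.5% in either. The median over the 26 chains was 0.56, beside 0.00 for all genes. In 12 chains the schisandrin B libraries all lay above the normal ones, where 38.7% of all genes did not overlap in either direction. The comparisons share libraries pairwise, so their calls are not independent of one another.

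**Figure D2:**
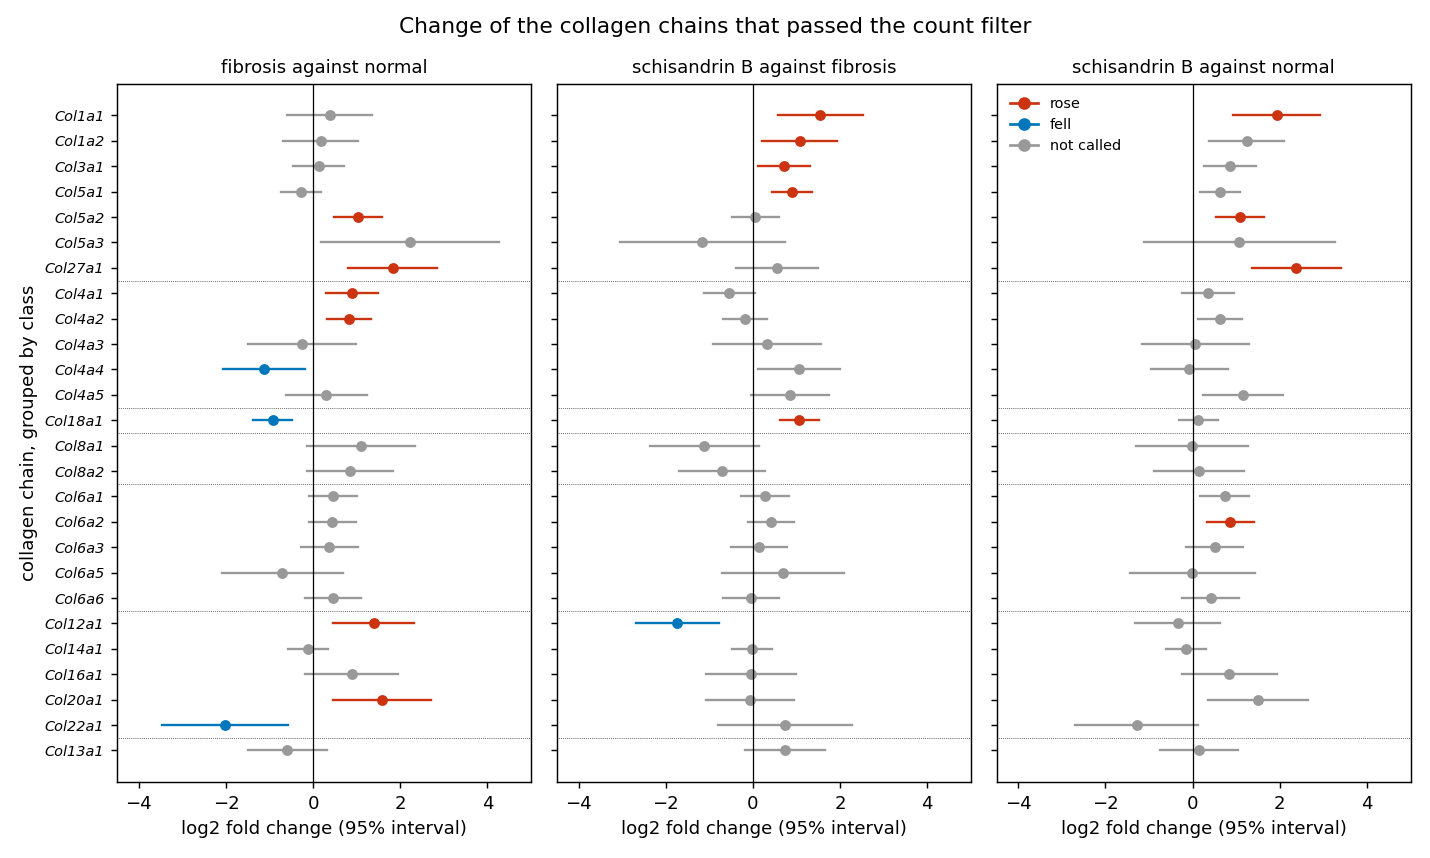
Log2 fold change with its 95% interval (edgeR, 3 libraries per group) of the 26 tested chains in the 3 comparisons, ordered by class from fibrillar at the top to transmembrane at the bottom, with dotted lines between classes. Red marks chains that rose, blue those that fell and grey those not called. In the fibrillar block 2, 4 and 3 chains are red from left to right, and the 4 in the middle panel are Col1a1, Col1a2, Col3a1 and Col5a1.

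Fibrillar chains carry the fibres of scar tissue, and 7 of the 11 could be tested: 2 rose in fibrosis against normal, 4 rose in schisandrin B against fibrosis, and 3 rose in schisandrin B against normal, with 0 falls. Of all tested genes, 25.4%, 22.5% and 5.25% were called higher in these comparisons, and 48.3%, 47.3% and 10.5% in either direction. Col1a1 encodes the chain present in duplicate in type I collagen. Its level was 7.63, 11.6 and 11.4 CPM in normal, 10, 8.16 and 21.5 CPM in fibrosis, and 64.3, 25.1 and 27.5 CPM in schisandrin B libraries. All 3 schisandrin B libraries lay above the others, and fibrosis replicate 3 stood above the rest of its group, which overlapped the normal group. Col1a1 rose by 1.55 ± 0.44 (SE) on the log2 scale in schisandrin B against fibrosis (adjusted p 0.015) and by 1.93 ± 0.45 against normal (0.0236). In fibrosis against normal it differed by 0.38 ± 0.44, with a 95% interval from -0.60 to 1.36 (0.506). Over 16 alternatives the adjusted p of the first change ran from 0.00102 to 0.0836, and the call ended without fibrosis replicate 1 (0.0836), without replicate 2 (0.0532), with library totals (0.0573) and with no count filter (0.0631). The change against normal lost its call without any 1 of the normal replicates (0.0846, 0.0624 and 0.072), without schisandrin B replicate 1 (0.0601) and with no count filter (0.0783), in a range from 0.000239 to 0.0846.

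Col1a2, the partner chain in type I collagen, had 15.5, 26.9 and 7.2 CPM in normal, 15.4, 19 and 21.5 CPM in fibrosis, and 51, 33.9 and 32.9 CPM in schisandrin B libraries. Again, schisandrin B libraries did not overlap the other groups, while normal libraries spread around all fibrosis libraries. It rose by 1.07 ± 0.38 (SE) in schisandrin B against fibrosis (adjusted p 0.0411). That call was fragile, since leaving out any 1 of the 6 libraries ended it (0.0548 to 0.152), as did library totals (0.15) and no filter (0.109). In fibrosis against normal it differed by 0.17 ± 0.39 (0.739).

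Col3a1, the type III chain, had 152, 254 and 199 CPM in normal, 205, 154 and 303 CPM in fibrosis, and 423, 330 and 339 CPM in schisandrin B libraries. With schisandrin B, every library was above the other groups, and normal and fibrosis overlapped. It rose by 0.72 ± 0.27 (SE) in schisandrin B against fibrosis (adjusted p 0.0462), and differed by 0.13 ± 0.27 in fibrosis against normal, with a 95% interval from -0.46 to 0.72. The call held without fibrosis replicate 3 and ended without each other library of the 2 groups (0.0705 to 0.143), with library totals (0.277) and with a fit on only the 2 groups (0.0711), in a range from 0.00885 to 0.277.

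Type V collagen is buried inside type I fibres and limits their width. Its chains did not move alike. Col5a1 had 19, 21.5 and 25.9 CPM in normal, 21.4, 13.8 and 19.6 CPM in fibrosis, and 40.3, 29.6 and 32.3 CPM in schisandrin B libraries. The schisandrin B libraries were above all others, and normal and fibrosis libraries overlapped. It rose by 0.90 ± 0.21 (SE) in schisandrin B against fibrosis (adjusted p 0.00467) and was called in all 16 alternatives. Col5a2 had 6.26, 7.64 and 5.34 CPM in normal, 13.1, 10.4 and 15.9 CPM in fibrosis, and 17.3, 10.8 and 13 CPM in schisandrin B libraries. Both CCl4-treated groups lay above the normal libraries and overlapped each other. It rose by 1.03 ± 0.25 (SE) in fibrosis against normal (0.0055), a call held in all 16 alternatives, and by 1.09 ± 0.25 in schisandrin B against normal (0.0195). The latter ended without normal replicate 1 (0.068) or 3 (0.0837) and without schisandrin B replicate 1 (0.0821) or 3 (0.0593), in a range from 0.00258 to 0.0837. Within a library, a pair of chains can be compared without any scaling factor. For every count of Col5a1 there were 0.332, 0.356 and 0.207 counts of Col5a2 in normal, 0.612, 0.753 and 0.812 in fibrosis, and 0.43, 0.367 and 0.405 in schisandrin B libraries. This pair was chosen after its values had been seen, so no test is given.

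Col27a1, a fibrillar chain best known from cartilage, had 2.06, 2.71 and 1.13 CPM in normal, 10.8, 7.18 and 3.23 CPM in fibrosis, and 13.6, 10 and 7.29 CPM in schisandrin B libraries. Every CCl4-treated library was above every normal one. It rose by 1.82 ± 0.46 (SE) in fibrosis (adjusted p 0.00693) and by 2.38 ± 0.46 in schisandrin B libraries (0.00868), both against normal, and each call held in all 16 alternatives. It was not called between the CCl4-treated groups, with 0.55 ± 0.43 (0.309). Col5a3, a minor type V chain, ran from 0 to 0.879 CPM in normal, from 0.323 to 3.28 in fibrosis and from 0.477 to 0.946 in schisandrin B libraries, with no call. Of the untested fibrillar chains, Col2a1, the main chain of cartilage, had 0 counts in all 9 libraries, which at 3 counts per library allows up to 0.176 to 0.286 CPM. Col11a1, Col11a2 and Col24a1 had 15, 9 and 15 counts over all 9 libraries.

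**Figure D3:**
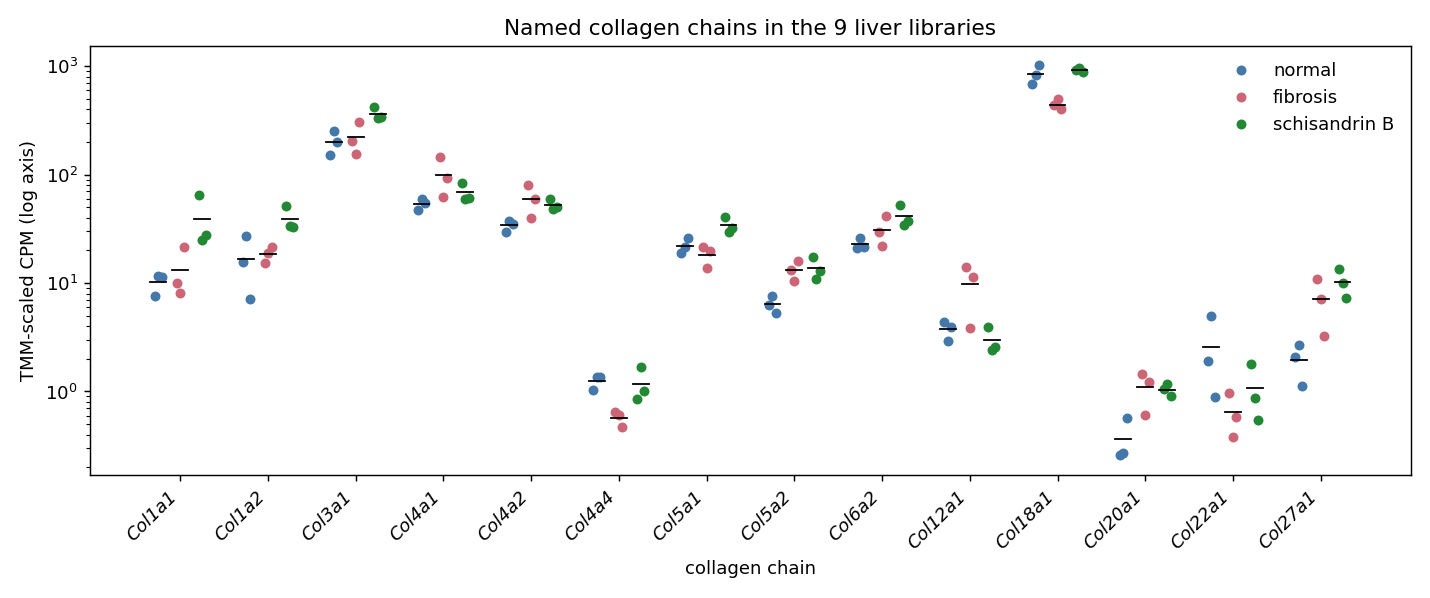
Level (TMM-scaled CPM, log axis) of the 14 named chains in each library, with points for libraries, colours for groups and a bar for each group mean. Col18a1 is lower in the fibrosis libraries than in all others, and Col1a1, Col1a2, Col3a1 and Col5a1 are highest in the schisandrin B libraries.

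Among type IV chains of the basement membrane, the broadly expressed pair Col4a1 and Col4a2 rose in fibrosis against normal, and of the 5 tested 2 rose and 1 fell. Of all genes, 48.3% were called in either direction there. No type IV chain was called in schisandrin B against fibrosis or against normal, where 47.3% and 10.5% of all genes were called. Col4a1 had 47, 59.5 and 54.3 CPM in normal, 144, 62.6 and 92.4 CPM in fibrosis, and 84.1, 59.8 and 61.5 CPM in schisandrin B libraries. Fibrosis replicate 1 was the highest, replicate 2 was close to the normal libraries, and both CCl4-treated groups lay above the normal range, though their lowest libraries only narrowly. Col4a1 rose by 0.89 ± 0.27 (SE) in fibrosis against normal (adjusted p 0.0175), and the call ended without normal replicate 1 (0.0712) or 3 (0.0526) and without fibrosis replicate 1 (0.0513), in a range from 0.00159 to 0.0712. In schisandrin B against fibrosis it was -0.54 ± 0.27 (0.121) and was called lower with library totals (0.0279) and without fibrosis replicate 2 (0.0182), in a range up to 0.497.

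Col4a2, which is transcribed head to head with Col4a1 and joins it in the same trimer, had 29.7, 37.2 and 35.2 CPM in normal, 79.5, 40.1 and 60 CPM in fibrosis, and 59.8, 47.8 and 50.8 CPM in schisandrin B libraries. The order of libraries within the fibrosis group was that of Col4a1. It rose by 0.82 ± 0.23 (SE) in fibrosis (adjusted p 0.0124), a call that ended without normal replicate 1 (0.0552), in a range from 0.000972 to 0.0552. Against normal, the schisandrin B libraries differed by 0.63 ± 0.23 without a call (0.103). It was called there with library totals (0.0467) and with a fit on only those groups (0.0117), in a range up to 0.265. Each count of Col4a2 came with 1.58, 1.60 and 1.54 counts of Col4a1 in normal, 1.81, 1.56 and 1.54 in fibrosis, and 1.40, 1.25 and 1.21 in schisandrin B libraries. The schisandrin B libraries were below all others, by 0.34 on the log2 scale against fibrosis and 0.29 against normal (exact 2-sided permutation p 0.1 each, the smallest that 3 against 3 allows, and 0.21 after adjustment over 21 tests).

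Col4a3, Col4a4 and Col4a5 are the chains of specialised membranes such as that of the kidney filter, and here they were scarce. Col4a4 had 1.03, 1.35 and 1.37 CPM in normal, 0.647, 0.605 and 0.469 CPM in fibrosis, and 0.859, 1.67 and 1 CPM in schisandrin B libraries. The fibrosis libraries were the lowest and did not overlap the other groups. It fell by 1.13 ± 0.43 (SE) in fibrosis (adjusted p 0.0467), on 8 counts in each fibrosis library, and leaving out any 1 of the 6 libraries ended the call (0.0599 to 0.137). The call also ended with library totals (0.186), no filter (0.123), DESeq2 (0.0974) and a fit on only the 2 groups (0.0512). Col4a5 ran from 2.23 to 5.98 CPM in normal, 2.26 to 5.86 in fibrosis and 7.48 to 8.59 in schisandrin B libraries. The last range lay above both others, without a call. Col4a3 had 0.286 to 1.82 CPM over all libraries, and Col4a6 had 27 counts in all and was not tested.

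Col18a1 is a multiplexin, a chain with a broken helix and sugar side chains that lies at basement membranes. It had 683, 832 and 1017 CPM in normal, 435, 494 and 401 CPM in fibrosis, and 926, 968 and 885 CPM in schisandrin B libraries. Every fibrosis library was below every other library, and the schisandrin B libraries lay within the normal range. Col18a1 fell by 0.93 ± 0.20 (SE) on the log2 scale in fibrosis against normal (adjusted p 0.00288), and rose by 1.06 ± 0.20 in schisandrin B against fibrosis (0.00131). Both calls held in all 16 alternatives, with adjusted p up to 0.0441 and 0.00726. Schisandrin B and normal libraries differed by 0.13 ± 0.20, with a 95% interval from -0.31 to 0.58. Of 10 hepatocyte markers, 7 fell and 0 rose in fibrosis against normal, beside 22.9% of all genes called lower, and 6 rose and 0 fell in schisandrin B against fibrosis, beside 22.5% called higher. Serpina1 and Fgb had the opposite sign, with 0.42 and 0.25 in the first comparison and -0.55 and -0.79 in the second, none of them called. The summed level of the 10, most of it albumin (Alb, a mean of 171811 CPM in normal libraries), was 245519 to 280546 CPM in normal, 75046 to 121597 in fibrosis and 207206 to 230441 in schisandrin B libraries, and their part in the change of Col18a1 was not tested. The other multiplexin, Col15a1, had 6 counts over all libraries.

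Type VI chains form beaded filaments around cells, and of the 5 tested 0 were called in fibrosis against normal or in schisandrin B against fibrosis. Of all genes, 48.3% and 47.3% were called in these comparisons. Col6a1 had 28, 39.3 and 34.5 CPM in normal, 47.5, 36 and 55.6 CPM in fibrosis, and 78.2, 41.1 and 50.5 CPM in schisandrin B libraries. Col6a2, its partner, had 21.2, 26.2 and 21.3 CPM in normal, 29.5, 22.1 and 41.4 CPM in fibrosis, and 52.9, 34.1 and 37.7 CPM in schisandrin B libraries. For both chains the schisandrin B libraries lay above all normal libraries and overlapped those of fibrosis. Col6a2 rose by 0.86 ± 0.25 (SE) in schisandrin B against normal (adjusted p 0.0465). Leaving out any 1 of the 6 libraries ended that call (0.0659 to 0.165), and it was kept in 6 of 16 alternatives. Col6a2 was called higher in fibrosis against normal with library totals (0.0228), and in schisandrin B against fibrosis without fibrosis replicate 3 (0.0378), with upper limits over the alternatives of 0.567 and 0.738. Col6a3, the longest chain of the filament, ran from 7.55 to 19.6 CPM and Col6a6 from 1.96 to 3.58 CPM over all libraries, with no call. Col6a5 stayed under 1.1 CPM in each library, and Col6a4 had 2 counts in all.

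The short-chain network collagens Col8a1 and Col8a2, which form lattices near vessels, were not called in any comparison. Col8a1 had 3.52, 0.947 and 2.59 CPM in normal, 8.57, 1.66 and 4.75 CPM in fibrosis, and 2.58, 1.89 and 2.46 CPM in schisandrin B libraries. Fibrosis replicates 1 and 3 were above all other libraries and replicate 2 was among the lowest, so the log2 difference of 1.10 ± 0.56 (SE) against normal was not called (adjusted p 0.131). With schisandrin B against fibrosis, the log2 difference was -1.11 ± 0.57 (0.13). Col8a2 ran from 0.647 to 1.28 CPM in normal, 1.21 to 2.11 in fibrosis and 0.728 to 1.62 in schisandrin B libraries. Col10a1, the chain of growth plate cartilage, had 0 counts in all libraries.

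Fibril-associated chains link fibres to their surroundings, and 5 of the 9 could be tested. Of these, 2 rose and 1 fell in fibrosis against normal, and 1 fell in schisandrin B against fibrosis. The shares of all genes called in either direction were 48.3% and 47.3%. Col12a1, which coats type I fibres in tissue under tension, had 4.37, 2.91 and 3.96 CPM in normal, 14.2, 3.85 and 11.4 CPM in fibrosis, and 3.91, 2.4 and 2.55 CPM in schisandrin B libraries. Fibrosis replicates 1 and 3 were above all other libraries, and replicate 2 was within the normal range. Col12a1 rose by 1.39 ± 0.42 (SE) in fibrosis (adjusted p 0.0178) and fell by 1.74 ± 0.43 in schisandrin B against fibrosis (0.00641). The fall was called in all 16 alternatives, and the rise ended without normal replicate 2 (0.071) or fibrosis replicate 1 (0.0549), in a range from 0.000994 to 0.071.

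Col14a1, which binds decorin on fibres and was the most counted of this class, had 37.9, 59.4 and 49.9 CPM in normal, 56.3, 37.5 and 42.4 CPM in fibrosis, and 48.9, 39.6 and 45 CPM in schisandrin B libraries. The groups overlapped, and its log2 differences of -0.11 ± 0.21 (SE) in fibrosis against normal and -0.03 ± 0.21 in schisandrin B against fibrosis had 95% intervals from -0.57 to 0.35 and from -0.49 to 0.43. Col20a1 had 0.257, 0.271 and 0.566 CPM in normal, 1.46, 0.605 and 1.23 CPM in fibrosis, and 1.05, 1.16 and 0.912 CPM in schisandrin B libraries. All CCl4-treated libraries were above the normal ones, on 3 to 21 counts per library. Col20a1 rose by 1.57 ± 0.51 (SE) in fibrosis (adjusted p 0.0245). The call ended without normal replicate 1 (0.0852) or 2 (0.0875), without fibrosis replicate 1 (0.076) or 3 (0.0678) and with DESeq2 (0.0505), in a range from 0.0065 to 0.0875. Col22a1, known from muscle-tendon junctions, had 1.89, 5 and 0.889 CPM in normal, 0.97, 0.378 and 0.586 CPM in fibrosis, and 1.81, 0.874 and 0.547 CPM in schisandrin B libraries. Its fall by 2.02 ± 0.66 (SE) in fibrosis (adjusted p 0.0255) leaned on normal replicate 2, without which the change was -1.11 and not called (0.187). It also ended without fibrosis replicate 2 (0.0828) or 3 (0.0703), with library totals (0.0639) and with limma voom (0.0599), in a range from 0.0105 to 0.187. Col16a1 ran from 0.6 to 3.24 CPM with no call. Col9a2 and Col9a3 had 4 and 10 counts over all libraries, and Col9a1 and Col19a1 had 0.

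Of the transmembrane chains, Col13a1 alone could be tested. It ran from 3.09 to 5.58 CPM in normal, 1.28 to 4.69 in fibrosis and 4.01 to 5.34 in schisandrin B libraries, with no call. Col17a1, the hemidesmosome chain of skin, and Col25a1 had 28 and 22 counts in all, and Col23a1 had 0. Col7a1, the anchoring fibril chain, had 12 counts, Col28a1 had 4, and Col26a1 had 10, namely 3, 3 and 2 in normal, 0 in each fibrosis and 2 in 1 schisandrin B library. Col17a1 had 10 of its counts in normal replicate 2, and Col25a1 had 6 in schisandrin B replicate 3. Otherwise these untested chains had at most 4 counts in a library, near the limit of 3, so no fold is given for them.

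The balance of classes within a library was examined as log2 ratios of counts, which need no scaling factor. Fibrillar chains summed to 2.50, 3.21 and 2.54 counts per type IV count in normal, 1.22, 1.95 and 2.43 in fibrosis, and 3.98, 3.68 and 3.72 in schisandrin B libraries. No library of 1 group overlapped another group. The mean log2 ratio was 1.45 in normal, 0.84 in fibrosis and 1.92 in schisandrin B libraries, so that schisandrin B lay 1.08 above fibrosis and fibrosis lay -0.61 relative to normal. The latter was -0.33 without fibrosis replicate 1. Each of the 3 differences had an exact 2-sided permutation p of 0.1, the smallest possible, and 0.21 after adjustment over 7 ratios in 3 comparisons, so none passed 0.05. The sums are mostly a few chains. In normal libraries Col3a1 averaged 15.1% of collagen counts beside 19.5% for all fibrillar chains. Col4a1 and Col4a2 averaged 4.06% and 2.57% beside 7.08% for all type IV chains. The ratio therefore mainly compares Col3a1 with Col4a1 and Col4a2.

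Pairs of fibrillar chains were compared in the same way, and no difference passed 0.05. Each count of Col1a1 came with 19.8, 21.9 and 17.4 counts of Col3a1 in normal, 20.4, 18.7 and 14.1 in fibrosis, and 6.57, 13.1 and 12.3 in schisandrin B libraries. The schisandrin B libraries were below all others (exact permutation p 0.1, adjusted 0.21, against each group), with replicate 1 the lowest. Without schisandrin B replicate 1 the log2 difference was -0.47 in place of -0.78 from fibrosis and -0.63 in place of -0.95 from normal. Col1a1 and Col1a2, which assemble together into type I collagen, stood at 0.493, 0.43 and 1.58 counts of Col1a1 per count of Col1a2 in normal, 0.65, 0.43 and 1 in fibrosis, and 1.26, 0.741 and 0.837 in schisandrin B libraries. Normal replicate 3 was apart from its group, and the groups overlapped. Col18a1 counts per count of all other chains were 1.72, 1.42 and 2.10 in normal, 0.631, 1.12 and 0.548 in fibrosis, and 0.938, 1.37 and 1.20 in schisandrin B libraries. Here the normal libraries lay above both other groups, which overlapped (exact permutation p 0.1, adjusted 0.21, for normal against each). Col5a1 per count of Col1a1 had log2 means of 1.13 in normal, 0.57 in fibrosis and -0.07 in schisandrin B libraries, and only the schisandrin B and normal libraries did not overlap. Col6a1 and Col6a2 kept log2 ratios of 0.56, 0.61 and 0.42, with overlap in all 3 comparisons.

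**Figure D4:**
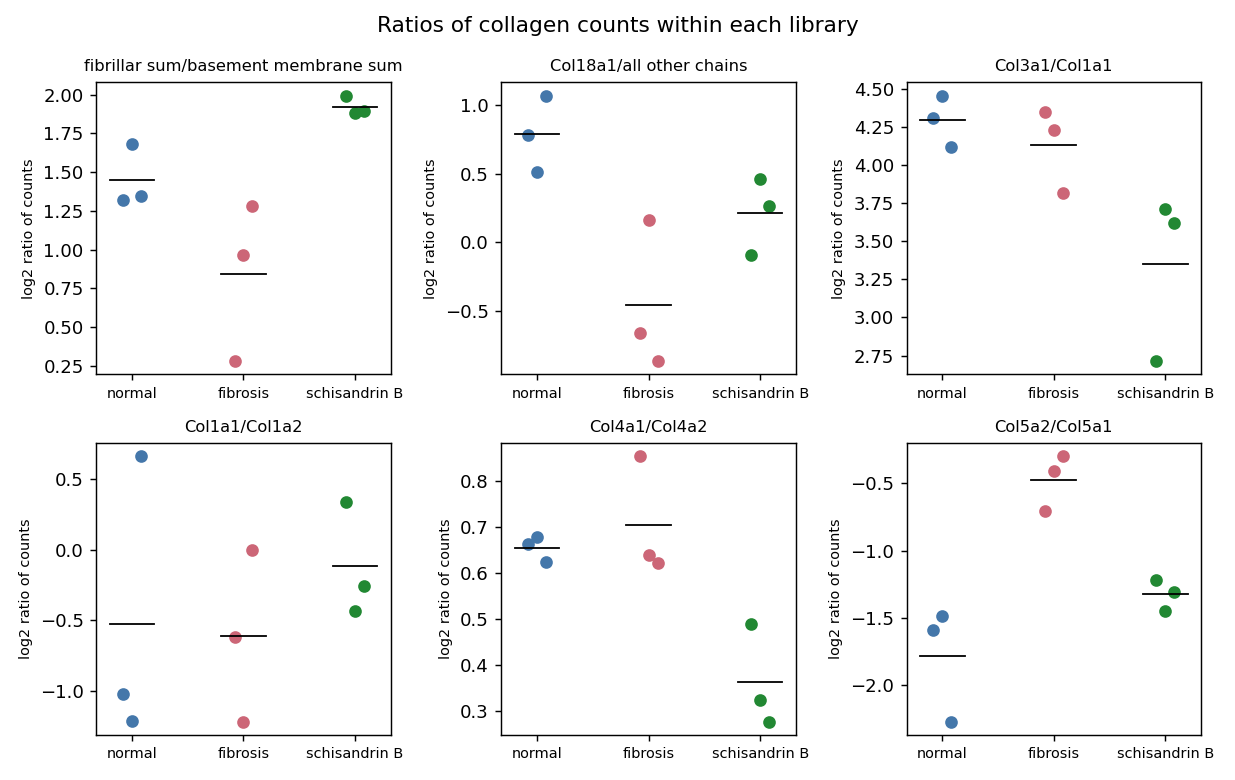
Log2 ratios of collagen counts within each library, in 6 panels with points for the 9 libraries and a bar for each group mean. In the first panel the 3 groups do not overlap, with means of 1.45 in normal, 0.84 in fibrosis and 1.92 in schisandrin B libraries, while Col1a1/Col1a2 overlaps in all groups and Col5a2/Col5a1, picked after its values were seen, is highest in fibrosis.

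The libraries of a group were not equally high in collagen. In the fibrosis group replicate 1 was the highest library for 13 of the 26 tested chains, among them Col4a1, Col4a2, Col8a1, Col12a1, Col20a1 and Col27a1. Replicate 3 was the highest for 11, among them Col1a1, Col1a2, Col3a1, Col5a2, Col6a1 and Col6a2, and replicate 2 for 2. In the schisandrin B group replicate 1 was the highest for 18 chains, replicate 2 for 8 and replicate 3 for 0. The normal group was uneven too, with replicate 2 the highest for 15 chains, replicate 3 for 8 and replicate 1 for 3.

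Genes that act on collagen chains were followed as lists, beside all tested genes, of which 25.4% were called higher and 22.9% lower in fibrosis against normal, and 22.5% higher and 24.8% lower in schisandrin B against fibrosis. The first list holds enzymes that modify the chains in the endoplasmic reticulum. Of 13 tested, 3 rose and 0 fell in fibrosis against normal, with a median of 0.44, a share called below the 48.3% of all genes, and 1 rose and 6 fell in schisandrin B against fibrosis, with a median of -0.56. P4ha2, a catalytic subunit of prolyl 4-hydroxylase, had 27.4, 24.1 and 21.6 CPM in normal, 88.5, 56.8 and 65.4 CPM in fibrosis, and 44.3, 28.5 and 40.5 CPM in schisandrin B libraries. The fibrosis libraries were above all others, with a rise by 1.53 ± 0.22 (SE, adjusted p 0.000202) and a fall by 0.90 ± 0.22 with schisandrin B (0.00549). Plod2, the lysyl hydroxylase that favours stable cross-links, rose by 2.13 ± 0.43 (SE) in fibrosis, from a low mean of 0.581 to 2.53 CPM. P4hb, the disulfide isomerase subunit of the hydroxylase, which also serves other secreted proteins, fell by 1.34 ± 0.21 in schisandrin B against fibrosis (0.000419). Leprel2, a prolyl 3-hydroxylase, rose by 0.82 ± 0.19 in that comparison (0.00449).

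The second list holds genes of procollagen folding and export. Of 15 tested, 2 rose and 4 fell in fibrosis against normal, with a median of 0.14, and 3 rose and 4 fell in schisandrin B against fibrosis, with a median of -0.36, so the shares called were near those of all genes (48.3% and 47.3%). Serpinh1, the collagen-specific chaperone HSP47, had 31, 30.2 and 32.3 CPM in normal, 26.3, 17.5 and 25.2 CPM in fibrosis, and 48.3, 34.9 and 35.3 CPM in schisandrin B libraries. The schisandrin B libraries were above and the fibrosis libraries below all normal ones, and it rose by 0.78 ± 0.20 (SE) in schisandrin B against fibrosis (adjusted p 0.00717). Sparc, a matrix protein that binds collagen, had 158, 144 and 171 CPM in normal, 136, 107 and 148 CPM in fibrosis, and 313, 225 and 289 CPM in schisandrin B libraries, and rose by 1.08 ± 0.20 between the CCl4-treated groups (0.00097). Sec13, a coat protein of export vesicles that serves all secretion, rose by 0.77 ± 0.16 in fibrosis (0.00209) and fell by 0.79 ± 0.16 with schisandrin B (0.00188). Creb3l1, also of this list, fell in both comparisons, with changes of -0.62 ± 0.23 (0.0446) and -1.04 ± 0.24 (0.00455).

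Outside the cell, Adamts2, which cuts the amino-terminal propeptide, was the 1 called gene of 5 tested propeptide-removing genes, with a rise by 1.18 ± 0.31 (SE) in fibrosis (adjusted p 0.00799). Of 11 tested cross-linking and fibril assembly genes 3 rose and 0 fell in fibrosis against normal, with a median of 0.10, and 1 rose and 3 fell in schisandrin B against fibrosis, with a median of -0.01. These counts are at or below the 48.3% and 47.3% of all genes called. Lox, the lysyl oxidase that starts cross-links, named after its values were seen, rose by 1.94 ± 0.62 in fibrosis (0.0233) and had 0.429, 0.203 and 0.566 CPM in normal, 1.7, 1.36 and 1.52 CPM in fibrosis, and 5.73, 4.15 and 1.09 CPM in schisandrin B libraries. The small proteoglycan Dcn rose by 2.11 ± 0.42 in fibrosis (0.00178). Lum, a related proteoglycan, rose by 2.76 ± 0.72 in schisandrin B against fibrosis (0.00789), at levels of 4.1, 0.946 and 0.912 CPM against 0.243 to 0.302 CPM. The fibrosis level of Lum was near the limit of 3 counts per library, as was Lox in normal replicate 2. Schisandrin B replicate 1 stood above the rest of its group for Lum, so the size of that rise is uncertain. The 3 that fell in that comparison were Loxl4, Thbs1 and Fn1. Their changes were -1.24 ± 0.29 (0.00453), -2.90 ± 0.82 (0.0177) and -0.87 ± 0.29 (0.0278).

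Collagen receptors rose in 3 and fell in 0 of 6 tested in fibrosis against normal, and fell in 3 in schisandrin B against fibrosis, with medians of 1.07 and -0.80, and the share called was near that of all genes (48.3% and 47.3%). Itgb1, the shared beta subunit of collagen-binding integrins, had 85.1, 87 and 86.6 CPM in normal, 354, 163 and 216 CPM in fibrosis, and 84.9, 75.9 and 79.8 CPM in schisandrin B libraries. The fibrosis libraries stood apart, and the changes were 1.503 ± 0.25 (SE, adjusted p 0.000503) and -1.61 ± 0.25 (0.000366). Itga2 and the receptor kinase Ddr1 also rose, by 2.66 ± 0.62 and 1.44 ± 0.39, and fell by 2.08 ± 0.59 and 1.05 ± 0.38. Itga2 had 0.172, 0.203 and 0.323 CPM in normal, 1.46, 1.13 and 1.94 CPM in fibrosis, and 0.382, 0.0728 and 0.638 CPM in schisandrin B libraries. Its normal and schisandrin B levels were near the limit of 3 counts per library, so the size of its changes is uncertain. Of 3 tested collagen-degrading genes, the gelatinase Mmp2 and its membrane-bound activator Mmp14 rose in fibrosis, by 1.18 ± 0.24 (0.00182) and 0.90 ± 0.23 (0.00713). Mmp14 fell by 1.44 ± 0.23 with schisandrin B (0.000462), whereas Mmp2 differed by 0.51 ± 0.23 without a call (0.0928). The collagenase Mmp13, also of this list, did not pass the count filter and was not tested. It had 8.57, 6.05 and 0.352 CPM in fibrosis and 0 in every normal and schisandrin B library.

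Markers of cell types in the liver were followed beside the chains. Acta2, the actin of contractile stellate cells, had 6.69, 5.34 and 5.01 CPM in normal, 17.6, 9.3 and 22.6 CPM in fibrosis, and 5.34, 4.73 and 3.56 CPM in schisandrin B libraries. The fibrosis libraries were above all others, and Acta2 fell by 1.86 ± 0.32 (SE) in schisandrin B against fibrosis (adjusted p 0.000718), the comparison in which Col1a1, Col1a2 and Col3a1 rose. Acta2 belongs to the fibroblast list, of which 3 rose and 1 fell of 7 tested in fibrosis against normal, and 1 rose and 2 fell in schisandrin B against fibrosis. Of all genes, 48.3% and 47.3% were called in either direction in the former and the latter comparison. The member that rose in the latter was Eln, the elastin gene, by 2.12 ± 0.51 (adjusted p 0.00581), with 3.15, 4.69 and 4.05 CPM in fibrosis and 31, 10.4 and 10.6 CPM in schisandrin B libraries. Of 12 stellate cell markers 2 rose and 5 fell in fibrosis against normal, beside 48.3% of all genes called in either direction. In schisandrin B against fibrosis 5 rose and 2 fell, beside 47.3% of all genes. Lrat, the retinol-storing enzyme of resting stellate cells, had 10, 19.6 and 11.5 CPM in normal, 1.05, 1.13 and 1.52 CPM in fibrosis, and 18.2, 16.7 and 20.2 CPM in schisandrin B libraries. Cygb and Des, of the same list, went the other way. They changed by 1.58 ± 0.22 and 1.37 ± 0.33 (SE) in fibrosis against normal (adjusted p 0.000137 and 0.00489). In schisandrin B against fibrosis they changed by -1.56 ± 0.22 and -1.37 ± 0.33 (0.000172 and 0.00501). The summed stellate markers ran from 382 to 653 CPM in normal, 278 to 389 in fibrosis and 543 to 576 in schisandrin B libraries. Fibroblast markers summed to 33.9 to 41.1, 46.4 to 68.9 and 38.95 to 80.7 CPM in the same order, with Gli1 at 0 in fibrosis libraries, and bile duct markers to 35.9 to 46.3, 74.5 to 81.7 and 29.6 to 51.5 CPM. Endothelial markers, from cells that also lay down type IV collagen, summed to 470 to 605 CPM in normal, 336 to 467 in fibrosis and 424 to 453 in schisandrin B libraries. Of the 10 tested, 4 fell and 0 rose in fibrosis against normal, beside 22.9% of all genes called lower. In schisandrin B against fibrosis 3 rose (Stab1, Stab2 and Kdr) and 0 fell, beside 22.5% of all genes called higher. Only 4 of the 10 had a positive change in that comparison, and the median was -0.09. Pecam1, Vwf and Lyve1 differed there by -0.59, -0.59 and -0.34, without a call. Smooth muscle markers summed to 31.1 to 36.4, 28.0 to 75.2 and 25.7 to 39.03 CPM, and macrophage markers to 1216 to 1876, 724 to 1477 and 649 to 940 CPM. Mesothelial markers summed to 0.970 to 9.67, 8.25 to 12.8 and 1.02 to 13.6 CPM. Of the 4 tested, 1, Wt1, rose in fibrosis against normal (adjusted p 0.00186), beside 25.4% of all genes called higher. Wt1 had 0, 0.0676 and 0 CPM in normal and 0.97, 0.605 and 1.17 CPM in fibrosis libraries. The normal level is under the limit of 3 counts per library, so no fold is given. T and NK cell markers summed to 6.55 to 11.3, 2.72 to 4.69 and 6.84 to 8.87 CPM. All 4 tested fell in fibrosis against normal, beside 22.9% of all genes called lower. In schisandrin B against fibrosis 1 rose, beside 22.5% of all genes called higher. The part of these cell types in the collagen changes was not tested.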

How the data were processed

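The authors deposited 1 table of raw counts per gene for 9 libraries, whole numbers without normalization, from Ion Proton sequencing per the labels' protocols. No label or header names an aligner, counter or filter. The labels name mouse and GRCm38, but the strain is Wistar rat and the symbols are those of rat, so no coordinates or sequences are given. Samples were grouped by source name, and replicate numbers follow the accession order and pair nothing.

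Counts were fitted in R 4.3.3 with edgeR 4.0.16 (filterByExpr, TMM, robust quasi-likelihood fit on all 9 libraries, Benjamini-Hochberg adjustment over 14581 genes, threshold 0.05). The fit gives no SE directly. Each SE was derived as the absolute log2 change divided by the square root of the F statistic. The 95% intervals use that SE and a t quantile. The fit was also run on simulated data, which checked the recovery of changed genes and not the SE or intervals. Log2 ratios within a library used 0.5 added counts. Coding lengths are the longest of each mouse orthologue in GENCODE M21, matched by symbol for all 44 chains. Limits at 3 counts cover counting error only. Figures were drawn with matplotlib 3.10.9.

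Values in each library are given for Col1a1, Col1a2, Col3a1 and each chain called in at least 1 comparison with at least 1 CPM in the higher group (14 chains). Col6a1, Col8a1, Col14a1 and, among related genes, Lox and Mmp13 were added after their values were seen. Of the lists of related genes, up to 4 per list with the lowest adjusted p may be named. Loxl4, Thbs1 and Fn1 were added as the called falls of their list. Members and lists were chosen with earlier results of these data known. Alternatives were other scalings, filters, tests (DESeq2 1.42.0, limma 3.58.1 voom), fits without robust dispersions or on 2 groups, omission of the 20 most counted genes, a threshold of 0.01 and omission of each library.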

Additional observations from a re-analysis of the deposited data

How the results depend on the processing

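Of 661 refits of single named chains, 565 kept direction and call, 64 lost the call, 14 gained it and 18 changed sign, all 18 among differences that were not called. The number of called chains in fibrosis against normal was 9, with 14 by library totals, 3 at an adjusted p under 0.01, and 5 to 8 without 1 library (5 without normal replicate 1). For schisandrin B against fibrosis it was 6, with 3 at 0.01 and 4 to 6 without 1 library. For schisandrin B against normal it was 4, with 9 in a fit on only those groups, 1 at 0.01, and 1 to 3 without 1 library: 1 without replicate 1 of either group and 2 without replicate 3 of either. Library totals moved the share called higher among all called genes from 52.7% to 74.7%, from 47.6% to 32.6% and from 50.0% to 70.3% in the 3 comparisons, and upper-quartile factors shifted the median gene by -0.11 and 0.13 in the first and second. The cause was not tested. No paired analysis was possible because the replicate numbers follow accession order only.

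Sign changes without 1 library are given as the range over such refits. In fibrosis against normal, Col1a1 ran from -0.17 to 0.63, Col1a2 from -0.19 to 0.71 and Col3a1 from -0.17 to 0.33, and Col5a1 was 0.16 with library totals. In schisandrin B against fibrosis, Col4a2 ran from -0.41 to 0.0693, Col5a2 from -0.0910 to 0.22 and Col20a1 from -0.36 to 0.16. There Col5a2 was -0.22 with library totals, and Col20a1 was 0.0518 with upper-quartile factors and 0.0196 with limma voom. In schisandrin B against normal, Col4a4 ran from -0.43 to 0.11 and was 0.0768 with library totals, and Col18a1 ran from -0.00175 to 0.29. Of 126 ratio refits, 5 changed sign, all in fibrosis against normal: Col1a1/Col1a2 ran from -0.43 to 0.50, Col4a1/Col4a2 from -0.0236 to 0.0922 and Col6a1/Col6a2 from -0.0360 to 0.13. Chains near 1 CPM, such as Col20a1 on 3 to 21 counts per library, are limited by depth.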
